A study of Mus musculus with 24 samples.

Results

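The ileum of mice given calcitriol, the hormone form of vitamin D, was compared with that of vitamin D-deficient mice. The comparison used 7 poly(A) RNA libraries of the 24 samples in the series, and described the 12149 genes, of 21441 listed, that reached at least 1 FPKM (fragments mapped to a gene, scaled by its length and by the fragments mapped in the library) in at least 3 of the 7. The 4 treated libraries came from wild-type C57BL6J mice given 3 doses of calcitriol, 1 ng for each g of body weight, 48, 24 and 6 h before sampling. The 3 deficient libraries came from wild-type C57BL6J mice for which the labels give no treatment, although the columns of their values are named Vehicle. All of these mice were wild type, so the receptor was intact in both groups. The labels list 2 females and 2 males among the treated ileal samples and 1 female and 3 males among the 4 deficient ones, and ages of 10 to 14 and 10 to 13 without a unit. Another table, named for 8 ileal libraries, equals the duodenal one in 171528 of 171528 values and was not used, so the ileum here has 1 deficient library fewer than the labels list.

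Calcitriol acts through the vitamin D receptor, a nuclear receptor that pairs with a retinoid X receptor on DNA and raises or lowers the transcription of nearby genes. In the proximal intestine it is best known for inducing the genes that carry calcium across the epithelium. In every tissue that responds it is known to induce the enzyme that degrades the hormone. The ileum is the site of bile acid and vitamin B12 uptake, and its crypts hold Paneth cells, which secrete antimicrobial peptides.

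Libraries are named by group and column number, treated 1, 3xD5711, 3xD5720 and 3xD5734 and deficient 1, 2 and 3, and values are given in that order. Fabp6, which encodes the ileal bile acid-binding protein, was higher in every ileal library than in any duodenal or colonic one. It stood at 10116, 9095, 1985 and 10301 FPKM in treated and 5462, 8180 and 10714 in deficient libraries. The 8 duodenal libraries held 0.926 to 280.9 FPKM and the 8 colonic ones 28.4 to 265.8. Other markers set treated 3xD5720 apart. Its summed ileum markers were the lowest, 4960 FPKM against 7421 to 13335 in the other ileal libraries. Its summed duodenum and jejunum markers were the highest, 3911 FPKM against 1405 to 3120. Its Cubn, an ileum marker, stood at 11.7 FPKM, within the duodenal range of 0.510 to 29.3. Whole reads recovered from the values came to 12866043 to 14885779 in treated 3xD5711, 3xD5720 and 3xD5734, and to 18420689 to 30351048 in the 4 libraries with serial numbers. Treated 3xD5711 and 3xD5720 had more Xist than Ddx3y, the pattern of females, and the other 5 libraries, deficient ones included, did not. Depth, numbering scheme, sex pattern and treatment thus cannot be fully told apart, and within the serial scheme only treated 1 can be set against the 3 deficient libraries. Treated 3xD5720 stood apart from the rest. In it, 154 genes lay more than 2-fold above all other libraries and 176 more than 2-fold below, against at most 17 and 19 in any other library, and its correlation with the others was 0.917 to 0.955. It led the first principal component, which held 46.3% of the variance. Deficient 1 held most transcripts of the exocrine pancreas, which are described below, and deficient 3 had the highest sums of lymphocyte, MHC class II and Paneth cell genes.

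No gene of the ileum passed the threshold of the test across all genes. Limma on log2(FPKM + 1), with Benjamini-Hochberg adjustment, called 0 of 12149 genes (0%) at an adjusted p under 0.05, and the smallest adjusted p was 0.706. Without adjustment, 376 genes were higher in treated mice at a p under 0.05 (3.09% of those tested) and 333 were lower (2.74%). Voom on recovered reads called 1 of 9378 genes (0.0107%). The treated and deficient libraries did not overlap for 407 genes that were higher (3.35%) and 390 that were lower (3.21%), 6.56% in all. Of the splits of 7 libraries into 4 and 3, 5.71% put the groups of a gene apart in either direction. The share seen is near that one, so a lack of overlap describes the values and is not by itself evidence of a difference. The median log2 difference over all genes tested was 0.012, with 6275 genes (51.7%) above 0. With 4 libraries against 3, an exact two-sided permutation test of a single gene cannot give a p below 0.0571, the value for every gene whose groups did not overlap. Log2 differences in the ileum are treated minus deficient on log2(FPKM + 1), ± SE, which understates the change of low genes. In this limma fit of the 7 libraries each has an adjusted p of 0.706 or more.

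The catabolic enzyme of vitamin D and a manganese exporter were higher in each treated library than in any deficient one. Cyp24a1 encodes the 24-hydroxylase that inactivates calcitriol. It stood at 6.12, 40.3, 543 and 5.34 FPKM in treated libraries, against 0.0265, 0.0157 and 0.153 in deficient ones. These values rest on 654, 2165, 25494 and 313 recovered reads in treated and 2, 2 and 14 in deficient libraries. Cyp24a1 reached 1 FPKM in treated libraries only, so it passed the filter through the group where it was high. The treated values themselves spanned a wide range, with treated 3xD5720 far above the others, and treated 1 and 3xD5734 were close to each other. The log2 difference was 4.90 ± 1.40 (unadjusted p = 0.00775 by limma across all genes; exact permutation p = 0.0571), 3.53 without treated 3xD5720 and 2.74 for treated 1 alone against the deficient libraries.

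Slc30a10 encodes a transporter that exports manganese from cells. It stood at 34.5, 26.0, 121 and 50.1 FPKM in treated libraries, against 7.29, 19.9 and 2.32 in deficient ones. Each treated library lay above each deficient one, by a narrow margin between treated 3xD5711 and deficient 2. The log2 difference was 2.57 ± 0.68 (unadjusted p = 0.005), and 2.14 without treated 3xD5720. The gene lies on the plus strand at chr1:187278727-187292641 (NCBIM37, the assembly of mm9), and S100g, described next, on the minus strand at chrX:159399924-159402531.

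S100g encodes calbindin-D9k, the small protein that carries calcium through the enterocyte. It stood at 768, 1869, 494 and 261.5 FPKM in treated libraries, against 29.6, 1339 and 16.5 in deficient ones. Deficient 2 lay above 3 of the 4 treated libraries, so the groups overlapped, although deficient 1 and 3 were far below every treated one. The log2 difference was 2.87 ± 1.41 (unadjusted p = 0.0747), 4.83 without deficient 2 and 1.70 without deficient 3. Deficient 2 was also the deficient library with the highest Slc30a10. Its Cyp24a1 rested on only 2 reads, as did that of deficient 1, too few to rank these libraries by Cyp24a1.

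The promoters of these target genes are shown because a receptor of this kind is known to bind pairs of hexamers. They are the RefSeq windows from 250 bases before to 50 after the start of the gene (GRCm38.p6), with matches to 4 hexamers, on either strand, in capitals. The hexamers were AGGTCA, held by 16.3% of all promoters in the table, AGTTCA (14.0%), GGGTCA (13.7%) and GGTTCA (10.4%). The Slc30a10 window lies on the plus strand at chr1:185454598-185454897 and the S100g window on the minus strand at chrX:162964550-162964849, and RefSeq's table held none for Cyp24a1.
Slc30a10: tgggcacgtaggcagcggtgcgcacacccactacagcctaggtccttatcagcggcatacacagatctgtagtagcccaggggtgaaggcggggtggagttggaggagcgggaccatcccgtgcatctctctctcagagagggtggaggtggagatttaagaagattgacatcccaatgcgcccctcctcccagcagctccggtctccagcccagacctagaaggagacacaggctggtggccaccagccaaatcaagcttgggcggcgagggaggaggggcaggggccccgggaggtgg
S100g: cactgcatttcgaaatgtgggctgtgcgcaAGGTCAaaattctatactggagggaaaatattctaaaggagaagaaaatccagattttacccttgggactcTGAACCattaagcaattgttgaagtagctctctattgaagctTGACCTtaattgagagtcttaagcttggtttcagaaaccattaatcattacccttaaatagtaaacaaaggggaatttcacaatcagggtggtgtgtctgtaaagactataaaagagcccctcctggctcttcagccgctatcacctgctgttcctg
The S100g window held 3 hexamers, 2 of AGGTCA and 1 of GGTTCA, beginning 220, 149 and 107 bases before the start, none of them as a repeat with 3 bases between. The Slc30a10 window held none. Such matches are common: 43.7% of all 32851 promoters hold at least 1 of the hexamers, and 0.0396% hold a direct repeat of 2 of them with 3 bases between. Of the 30 genes searched, the panel of the labels and the 24 with the smallest p, 18 had promoters in the table; 11 of their 23 promoters held a hexamer and 0 held the repeat.

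The rest of the calcium route was low or little different. Trpv6, the apical calcium channel gene, was listed at 0.0106, 0.506, 0.241 and 0.193 FPKM in treated and 0.015, 0.0356 and 0.0494 in deficient libraries, under the filter in all of them, on 1 to 24 reads in treated and 1 to 4 in deficient libraries. Trpv5, its close relative, was listed at 0 in every library. Slc37a2, a sugar-phosphate transporter gene of the quantitative PCR panel named in the labels, stood at 1.07, 0.664, 0.475 and 1.33 FPKM in treated and 0.680, 1.06 and 0.844 in deficient libraries, with fully mixed groups. Atp2b1, which encodes the basolateral calcium pump, stood at 70.2, 70.2, 56.3 and 67.0 FPKM in treated and 50.4, 63.3 and 43.9 in deficient libraries (log2 0.33 ± 0.16), where deficient 2 lay above treated 3xD5720. Cldn2, a claudin gene of the cation-permeable paracellular route, stood at 61.5, 152, 211 and 77.8 FPKM in treated and 64.0, 55.5 and 59.7 in deficient libraries (0.89 ± 0.40), with treated 1 among the deficient values. Orai1 encodes the pore of the store-operated calcium channel. Its values, 25.1, 27.0, 23.5 and 21.3 FPKM in treated and 17.2, 19.6 and 20.1 in deficient libraries, did not overlap (0.34 ± 0.13, unadjusted p = 0.0292). Over the whole list of calcium transport, 10 of 17 genes were tested, 6 of them above 0, with a median of 0.12.

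**Figure D1:**
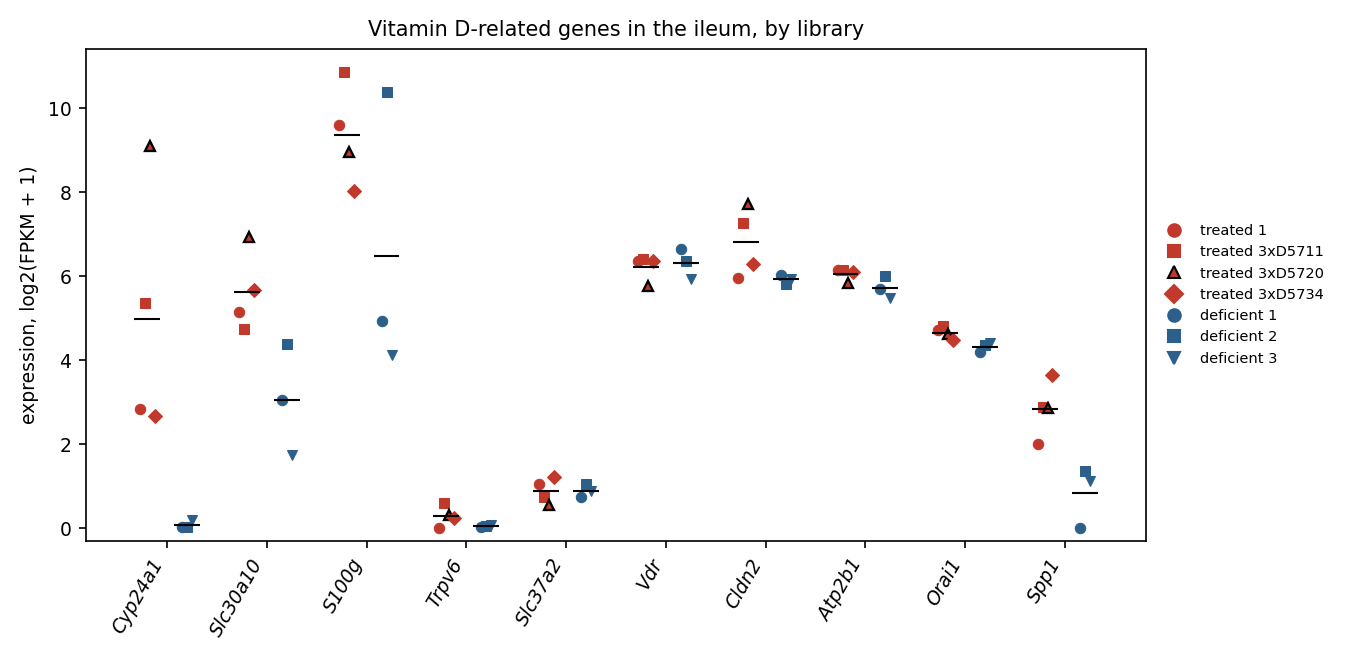
Expression of 10 vitamin D-related genes in the ileum, as log2(FPKM + 1), with treated libraries (red) left of deficient ones (blue) for each gene. Symbols mark the library, the black-edged triangle is treated 3xD5720, and bars are group means. Cyp24a1, Slc30a10, Orai1 and Spp1 show no overlap, while Vdr, Slc37a2 and S100g do.

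The receptor and its partners did not separate the groups. Vdr stood at 80.8, 83.3, 53.4 and 81.7 FPKM in treated and 98.7, 81.7 and 59.9 in deficient libraries (log2 -0.09 ± 0.22), with mixed groups. The retinoid X receptor genes Rxra (-0.12 ± 0.32) and Rxrb (-0.09 ± 0.13) overlapped too, and Rxrg lay under the filter. The coactivator genes Ncoa1 (0.19 ± 0.17), Ncoa2 (0.39 ± 0.29), Ncoa3 (0.05 ± 0.13) and Med1 (0.18 ± 0.12), and the corepressor gene Ncor1 (0.22 ± 0.18), differed by less than 2 SE. Of the enzymes that make the hormone, Cyp27b1 and Cyp2r1 lay under the filter and Cyp27a1 stood at 35.7, 58.1, 65.5 and 51.1 FPKM in treated and 51.3, 49.0 and 19.3 in deficient libraries (0.48 ± 0.35). Cubn, which encodes the receptor cubilin, stood at 108, 126, 11.7 and 152 FPKM in treated and 132, 106 and 33.1 in deficient libraries, and treated 3xD5720 was the lowest of all. The binding protein gene Gc was listed at 0 everywhere, and Lrp2 was under the filter. Of 12 tested members of this list, 8 were above 0, the median was 0.19, and Cyp24a1 was the 1 member without overlap. It passed the filter through the treated libraries only, and 3.35% of all genes were higher without overlap.

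Among 16 tested genes known from other work to respond to vitamin D, 12 were above 0, against 51.7% of all genes. Their median was 0.265, 0.12 without treated 3xD5720 and 0.11 for treated 1 alone. Of the 16, 3 did not overlap, all higher, where 3.35% of all genes were higher without overlap. Cyp24a1, among these 3, passed the filter only through the treated libraries, where it was high. The third beside Cyp24a1 and Slc30a10 was Spp1, which encodes osteopontin, a secreted matrix protein and a known vitamin D target in bone. It stood at 2.98, 6.43, 6.30 and 11.5 FPKM in treated and at 0, 1.59 and 1.19 in deficient libraries (log2 2.02 ± 0.43, unadjusted p = 0.00154; 1.16 for treated 1 alone). Cd14, a coreceptor of bacterial lipopolysaccharide, stood at 6.66, 9.61, 17.2 and 7.31 FPKM in treated and 5.09, 5.04 and 6.94 in deficient libraries (0.67 ± 0.29), overlapping by treated 1 alone. Cdkn1a, the cell cycle inhibitor p21, stood at 141 to 170 FPKM in treated and 115 to 188 in deficient libraries (0.04 ± 0.18).

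Zinc and manganese transporters were tested in full, 20 of 20, and 16 were above 0 with a median of 0.25, which was 0.16 with 13 above 0 without treated 3xD5720 and 0.00 for treated 1 alone. Beside Slc30a10, the zinc exporter genes Slc30a5 (40.4, 42.1, 48.5 and 46.8 FPKM in treated and 38.8, 35.2 and 38.3 in deficient libraries) and Slc30a9 (17.8, 17.3, 18.7 and 21.6 against 15.2, 11.3 and 15.4) did not overlap and were higher, by 0.24 ± 0.12 and 0.42 ± 0.15. Slc39a7, which releases zinc from the secretory pathway, did not overlap and was lower, at 51.7, 47.2, 54.2 and 45.9 FPKM in treated and 54.6, 64.2 and 67.0 in deficient libraries (-0.31 ± 0.13). The importer genes of manganese, Slc39a8 (0.79 ± 0.58) and Slc39a14 (0.24 ± 0.21), overlapped. The metallothionein gene Mt1, at 323, 717, 1019 and 504 FPKM in treated and 935, 639 and 143 in deficient libraries, had its spread inside each group.

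The genes with the smallest p included Spp1, described above. Among those higher in treated mice the first was Ap1g1, a clathrin adaptor subunit gene, listed at 1.42, 1.82, 2.06 and 0.913 FPKM in treated and 0, 0 and 0.00507 in deficient libraries, on 326, 211, 208 and 115 reads against 0, 0 and 1 (log2 1.33 ± 0.19, unadjusted p = 9.12e-05). It is the gene that voom called, at an adjusted p of 0.0342. Mib2, a ubiquitin ligase gene, was listed at 2.88, 0.684, 2.44 and 1.47 against 0.0443, 0.0723 and 0 (1.39 ± 0.28), and Tubgcp2, of the gamma-tubulin complex, at 1.32, 1.54, 3.33 and 2.12 against 0, 0.763 and 0.0588 (1.28 ± 0.28). These low values, near 0 in whole groups for genes that most cells use, are given as listed. Ap1g1, Mib2 and Tubgcp2 reached 1 FPKM in treated libraries only, so they passed the filter through the group where they were high.

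Better expressed genes of this group differed less. Ndufb11, a subunit gene of respiratory complex I, stood at 42.8, 67.7, 57.4 and 61.3 FPKM in treated and 30.8, 26.7 and 31.8 in deficient libraries (log2 0.91 ± 0.17, unadjusted p = 0.000711), yet 10 of 32 tested genes of oxidative phosphorylation lay above 0, with a median of -0.09 (15 and -0.01 without deficient 3). Ifi27l2a, an interferon-inducible gene, stood at 101.2, 105, 115 and 117 FPKM in treated and 42.3, 77.8 and 58.8 in deficient libraries (0.90 ± 0.20), the treated values being close together. Lpar1, a receptor gene for lysophosphatidic acid, stood at 16.7, 14.1, 15.8 and 14.5 against 10.1, 6.42 and 8.56 FPKM (0.82 ± 0.16). Cd59a, which encodes an inhibitor of complement lysis, stood at 15.6, 18.4, 20.9 and 21.0 against 10.0, 10.2 and 12.8 FPKM (0.73 ± 0.15). Cartpt, the gene of a neuropeptide of enteric neurons, stood at 3.08, 3.86, 4.997 and 2.52 against 1.33, 1.43 and 1.20 FPKM (0.96 ± 0.19). Gdpd2 (1.27 ± 0.24) and Krcc1 (0.97 ± 0.19) were also among the genes with the smallest p, as was Spp1. Krcc1 also reached 1 FPKM in treated libraries only.

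Lower in treated mice, the smallest p belonged to Oaz1, the antizyme gene that limits polyamine synthesis, listed at 0, 0.985, 0 and 0 FPKM in treated and 7.61, 5.83 and 2.18 in deficient libraries (log2 -2.27 ± 0.38, unadjusted p = 0.000342), on 0 to 13 reads against 49 to 182. It reached 1 FPKM in deficient libraries only, so it passed the filter through the group where it was high. Oaz1 was listed at 0 to 3.54 FPKM in duodenal and 0 to 1.72 in colonic libraries. Its values at or near 0 are given as listed. Histone genes followed: Hist2h2aa2 stood at 6.53, 1.46, 3.34 and 5.35 FPKM in treated and 17.1, 17.1 and 13.6 in deficient libraries (-1.83 ± 0.35), and Hist1h2ac at 1.11, 0.603, 0.921 and 0.922 against 2.29, 2.12 and 4.24 (-1.01 ± 0.21). Hist2h2aa2 has a near-identical copy in the genome, so its reads may be divided. Hist1h2ac did not overlap either, but is not a member of the histone list. Of 10 tested genes of that list, 1 lay above 0 and the median was -0.28. The 2 without overlap were Hist2h2aa2 and Hist1h4h (-0.60 ± 0.19), both lower, where 3.21% of all genes were lower without overlap. Replication-dependent histone transcripts lack a poly(A) tail, so a poly(A) library holds them in part. The most abundant member, Hist1h2bc, stood at 361, 342, 112 and 333 FPKM in treated and 215, 241 and 399 in deficient libraries, with no separation. The others among the 12 were Wdr89 (-1.27 ± 0.26), Tuft1 (-0.71 ± 0.15), Ctcfl (-1.12 ± 0.25), Rn4.5s (-1.81 ± 0.40), 4931406B18Rik (-0.85 ± 0.20), Abhd14a (-0.76 ± 0.18), Ogfod2 (-0.73 ± 0.18), the carboxylesterase gene Ces1f (-0.72 ± 0.18) and Rhox8 (-0.85 ± 0.22).

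**Figure D2:**
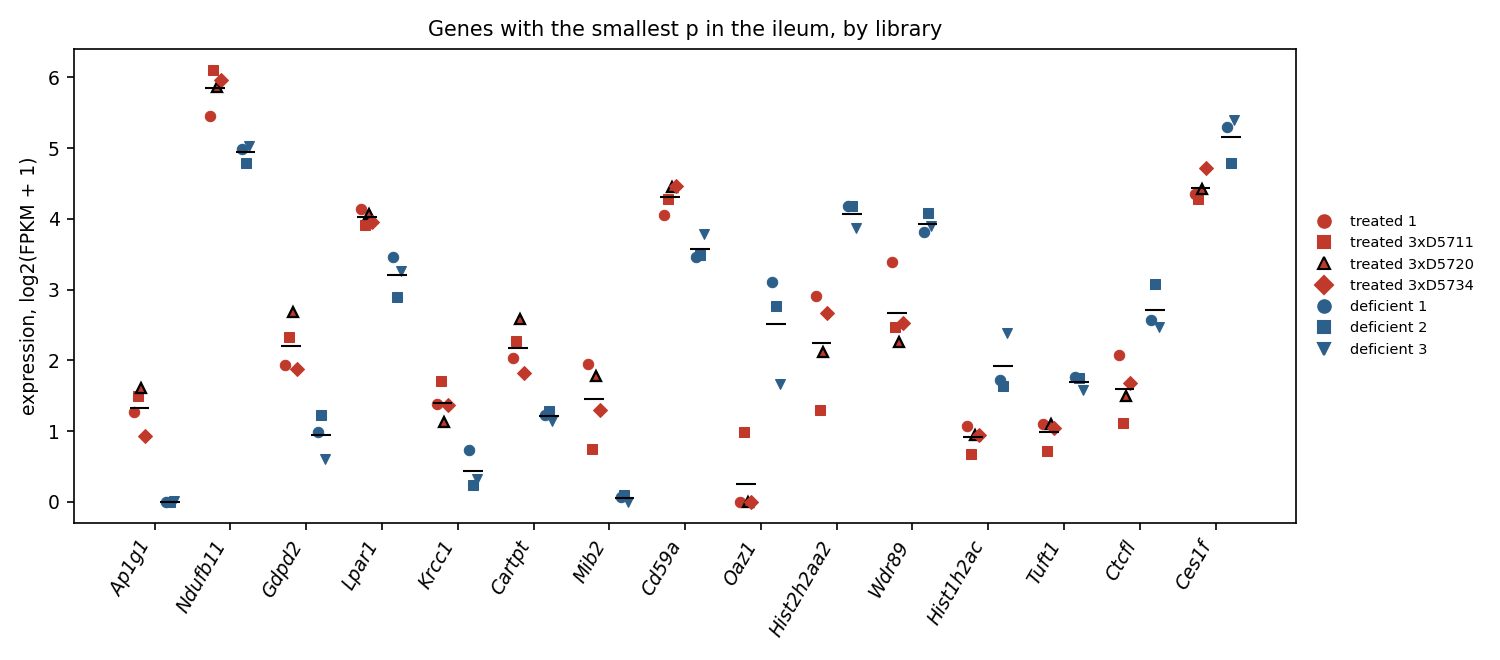
Expression of 15 of the genes with the smallest p in the ileum, as log2(FPKM + 1), 8 that were higher in treated mice and then 7 that were lower. Treated libraries (red) stand left of deficient ones (blue), symbols mark the library and bars are group means. No gene shown overlaps between the groups.

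The largest differences without overlap among the genes tested included metabolic and inflammatory genes. Pck1, the rate-limiting enzyme of gluconeogenesis, stood at 58.4, 69.7, 101.0 and 116 FPKM in treated and 38.9, 36.5 and 8.67 in deficient libraries (log2 1.79 ± 0.50; 1.12 without deficient 3). Fabp1, the liver-type fatty acid-binding protein gene, stood at 768, 383, 2181 and 360.0 against 194, 188 and 249.9 FPKM (1.73 ± 0.58). The chemokine gene Ccl2 stood at 3.60, 10.5, 13.5 and 5.77 against 2.65, 1.85 and 2.01 FPKM (1.43 ± 0.37). Haptoglobin, Hp, stood at 59.3, 67.1, 105 and 75.3 against 40.7, 42.4 and 11.9 FPKM (1.41 ± 0.42; 0.84 without deficient 3), and the acute-phase gene Serpina3n at 15.5, 53.5, 79.7 and 14.9 against 13.1, 11.5 and 7.84 (1.498 ± 0.58). Mnda (1.53 ± 0.38) and Chi3l3 (1.45 ± 0.85), both genes of myeloid cells, were the others. Chi3l3 reached 23.3 FPKM in treated 3xD5720 and 0.587 to 1.35 in the other treated libraries. It reached 1 FPKM in treated libraries only, so it passed the filter through the group where it was high. Of those lower, the dipeptidase gene Cndp2 stood at 67.7, 36.5, 26.3 and 34.2 FPKM in treated and 90.5, 189 and 72.6 in deficient libraries (-1.45 ± 0.39), and Thrsp, a regulator gene of fat synthesis, at 17.3, 14.0, 2.58 and 11.7 against 27.9, 17.9 and 28.9 (-1.26 ± 0.52). Stra8 (-1.36 ± 0.44) and the defensin gene Defa25 (-1.19 ± 0.31) were lower too.

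Genes of the glucocorticoid and fasting response stood above 0 in the ileum, 11 of 11 tested against 51.7% of all genes, with a median of 1.17. Those without overlap numbered 3, all higher, where 3.35% of all genes were higher without overlap. They were Pck1, Sgk1, a kinase gene that glucocorticoids induce in epithelia, and Tsc22d3, which encodes a mediator of glucocorticoid action. Sgk1 stood at 114, 290, 479 and 261 FPKM in treated and 76.0, 101.5 and 111 in deficient libraries (1.41 ± 0.42), and Tsc22d3 at 12.3, 27.0, 52.0 and 17.5 against 11.4, 11.8 and 11.3 (0.97 ± 0.41). Treated 1 lay just above the deficient libraries in both. For Fkbp5, a chaperone gene of the glucocorticoid receptor, treated 1 at 8.94 FPKM lay below all deficient libraries (26.8, 17.4 and 11.7), while treated 3xD5711, 3xD5720 and 3xD5734 stood at 51.0, 216 and 58.3. Treated 3xD5720 also led in G6pc, the last enzyme of glucose release (388.6 FPKM against 10.6 to 20.7 in the other treated and 4.30 to 15.3 in deficient libraries), and in Pdk4, a kinase gene that slows glucose oxidation (40.2 against 3.16 to 9.34 and 1.17 to 3.61). The median of the list was 0.65 without treated 3xD5720, with 10 of 11 above 0, and -0.04 for treated 1 alone, while treated 3xD5711, 3xD5720 and 3xD5734 differ from it in depth and, for the first 2, in sex pattern. Treatment and these features cannot be told apart here.

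**Figure D3:**
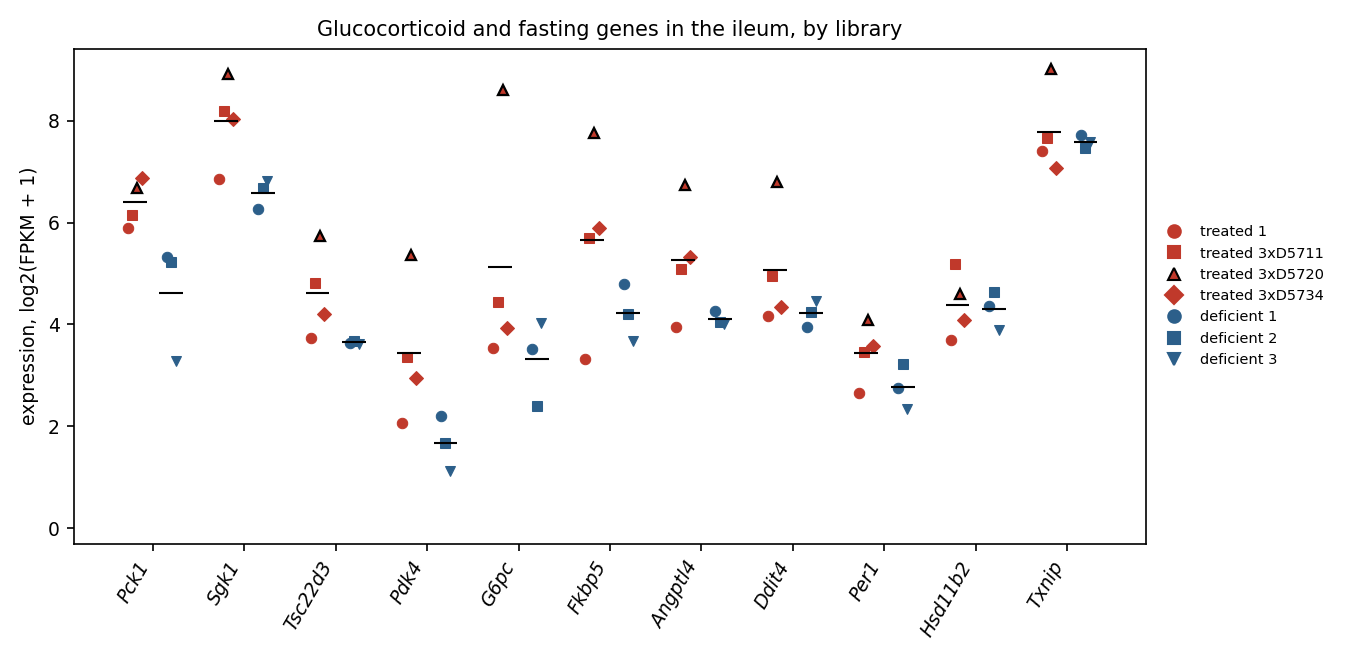
Expression of the 11 tested genes of the glucocorticoid and fasting list in the ileum, as log2(FPKM + 1), treated libraries (red) left of deficient ones (blue). Symbols mark the library and bars are group means. Treated 3xD5720 (black-edged triangle) is the highest treated library in 9 of the 11 genes, and treated 1 (red circle) lies close to the deficient libraries in most of them and below all of them in Fkbp5.

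Fatty acid oxidation genes and other targets of PPAR-alpha, the lipid-sensing nuclear receptor, differed less, and 4 of 19 tested did not overlap. Of all genes, 3.35% were higher without overlap and 51.7% lay above 0. Of the 19 tested, 18 were above 0, with a median of 0.33, 0.30 without treated 3xD5720 (19 of 19 above 0) and 0.13 for treated 1 alone. The groups did not overlap for Ppara itself (8.09, 9.38, 16.2 and 12.3 FPKM in treated and 7.26, 7.19 and 3.96 in deficient libraries, 0.80 ± 0.27), nor for the mitochondrial enzyme genes Cpt2 (0.33 ± 0.15), Hadha (0.30 ± 0.14) and Acaa2 (0.39 ± 0.17), all higher. Cpt1a, the gate of fatty acid entry into mitochondria, stood at 38.6, 53.0, 52.7 and 50.4 against 41.1, 36.2 and 24.5 FPKM (0.53 ± 0.20). Of 21 fat absorption genes, 12 were above 0 (median 0.03; 0.28 for treated 1 alone, and -0.13 without deficient 3). Of 22 brush border genes, 13 were above 0 (median 0.02; 0.07 for treated 1 alone, and -0.09 without deficient 3). The difference between these lists and the fatty acid oxidation list was not tested. Cd36, a fatty acid uptake gene, stood at 22.7, 26.6, 29.8 and 24.0 against 22.8, 14.7 and 10.8 FPKM (0.70 ± 0.23), with treated 1 just below deficient 1. Of 21 cholesterol synthesis genes 9 were above 0 (median -0.06; 0.08 with 14 above 0 without deficient 1).

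Ileal identity genes and bile acid transport did not separate the groups. Of 11 ileum markers 2 lay above 0, with a median of -0.25, and without treated 3xD5720 6 of 11 with a median of 0.02. Of 9 tested genes of bile acid transport and sensing, 5 lay above 0 and 0 were without overlap (median 0.16; 0.21 without treated 3xD5720, and -0.06 without deficient 2). Amn, which encodes the partner of cubilin in vitamin B12 uptake, stood at 171, 124, 44.3 and 134 FPKM in treated and 182, 261 and 153 in deficient libraries (-0.86 ± 0.44). Fgf15, the hormone that the ileum releases on bile acid uptake, stood at 70.7, 34.9, 0.288 and 15.1 FPKM in treated and 21.0, 51.8 and 16.9 in deficient libraries. Nr1h4, the bile acid receptor gene, stood at 71.7, 130, 226 and 104 against 97.2, 76.4 and 84.3 FPKM (0.51 ± 0.34), and Ostb, a subunit gene of the basolateral bile acid exporter, at 522, 780, 1858 and 655 against 419, 402 and 1042 (0.58 ± 0.49). Treated 3xD5720 had the lowest Fgf15 and Amn of the 7 and the highest Nr1h4 and Ostb.

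Antimicrobial genes varied by orders of magnitude within groups. Reg3b, a bactericidal lectin of the epithelium, stood at 5676, 10588, 94169 and 17033 FPKM in treated and 9569, 4767 and 45927 in deficient libraries (log2 0.46 ± 1.05). Lcn2, which withholds iron from bacteria, stood at 5.61, 14.2, 364.5 and 7.47 against 5.74, 3.55 and 6.12 FPKM, and the serum amyloid gene Saa1 at 18.1, 29.8, 2748 and 21.5 against 22.8, 9.55 and 473.6. Treated 3xD5720 was highest in all 3 genes, and deficient 3 was second in Reg3b and Saa1. Of 14 tested genes of this list 13 were above 0 (median 0.68), but without treated 3xD5720 the count was 7 (median 0.02), and for treated 1 alone the median was -0.59.

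Paneth cell genes mostly had differences below 0. Of 14 tested, 1 was above 0, with a median of -0.29, -0.35 without treated 3xD5720 and -0.30 for treated 1 alone. Deficient 3 had by far the highest summed level of this list, 151150 FPKM against 60354 to 84763 in treated and 81085 and 83115 in the other deficient libraries. Without it 7 of 14 genes were above 0 and the median was -0.05. Those without overlap were 2, both lower in treated mice, where 3.21% of all genes were lower without overlap. Itln1, which encodes a lectin that binds microbial sugars, stood at 2727, 2570, 2742 and 2404 FPKM in treated and 3372, 2848 and 4371 in deficient libraries (-0.41 ± 0.21), and the defensin gene Defa17 at 13747, 12605, 13716 and 11449 against 15120, 16720 and 23320 (-0.49 ± 0.26). Defa21, the most abundant, stood at 17391, 12801, 16119 and 9217 against 16639, 18960 and 33271 FPKM (-0.70 ± 0.36). Defensin genes are near-identical to one another, so reads may be divided among them and their values are not independent. Lyz1, the lysozyme of Paneth cells, stood at 6684, 6774, 10349 and 6606 against 7338, 6292 and 10310 FPKM (-0.07 ± 0.28), with mixed groups. In whole tissue, fewer cells of a type and less RNA per cell cannot be told apart.

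Of 15 tested crypt stem cell and Wnt target genes, 4 lay above 0 (median -0.16; -0.14 without treated 3xD5720, and -0.24 for treated 1 alone). Ascl2, a stem cell transcription factor gene, stood at 3.13, 3.44, 1.27 and 3.53 FPKM in treated and 4.26, 5.37 and 5.02 in deficient libraries (-0.66 ± 0.25), and the Wnt target Ephb3, a receptor that positions cells in the crypt, at 2.57, 2.69, 2.73 and 2.97 against 3.62, 4.03 and 3.72 (-0.36 ± 0.12). Neither overlapped. Of 26 proliferation genes 14 were above 0, with a median of 0.06, and their direction moved with single libraries. The median was -0.20 for treated 1 alone and -0.05 without treated 3xD5720. Without deficient 1 it was -0.03, with 6 genes without overlap, all lower, where 1116 of all 12149 genes were lower without overlap. Without deficient 3 it was 0.20, with 19 of 26 above 0 and 6 without overlap, all higher. In that setting 1625 of all 12149 genes were higher without overlap. Cebpa, a differentiation factor gene, stood at 7.77, 7.72, 4.43 and 3.55 against 8.24, 8.15 and 17.8 FPKM (-0.82 ± 0.33), without overlap and lower.

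Lymphocyte genes were spread within both groups. Of 18 T and NK cell genes 1 was above 0 (median -0.46), but for treated 1 alone the median was 0.34, without deficient 3 it was -0.22 with 5 above 0, and without deficient 1 -0.73 with 0 above 0. None of the 18 was without overlap. The summed level of that list ran from 41.5 to 166.7 FPKM in treated and from 91.0 to 363.7 in deficient libraries, with deficient 3 highest. MHC class II genes lay above 0 in 0 of 10 (median -0.31; 0.45 for treated 1 alone), but in 5 of 10 without treated 3xD5720 (median -0.03) and in 5 of 10 without deficient 3 (median -0.025). B and plasma cell genes lay above 0 in 8 of 15 (median 0.02; 1.07 for treated 1 alone), but in 0 of 15 without deficient 1 (median -0.61) and in 13 of 15 without deficient 2 (median 0.33). Cd74, the invariant chain, stood at 838, 878, 160.0 and 283 FPKM in treated and 302, 768 and 1427 in deficient libraries. How far the amount of lymphoid tissue in each library bears on these values was not tested. Of 31 interferon response genes 20 were above 0 (median 0.09), and 10 without treated 3xD5720 (median -0.11).

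Exocrine pancreas transcripts lay above 0 in 0 of 16 tested genes (median -1.52). Their summed level was 1574 FPKM in deficient 1, 278 and 359 in the other deficient libraries and 193 to 301 in treated ones, so the difference lay mainly in 1 library. Without deficient 1 the list had 1 of 16 genes above 0 and a median of -0.40. Cela1, an elastase gene, stood at 9.85, 8.95, 7.60 and 6.95 FPKM in treated and 86.3, 13.7 and 11.04 in deficient libraries (-1.43 ± 0.61; -0.52 without deficient 1), without overlap. The stomach list was nearly silent: 2 of its 13 genes were tested, and its summed level was at most 11.5 FPKM. Smooth muscle (6 of 13 above 0, median -0.03), goblet cell (10 of 16, 0.08) and enteric neuron and glia lists (4 of 10, -0.08) lay within 0.1 of the median of all genes. The enteroendocrine list had 6 of 15 above 0 and a median of -0.18, which was -0.02 without treated 3xD5720 and 0.08 without deficient 3.

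**Figure D4:**
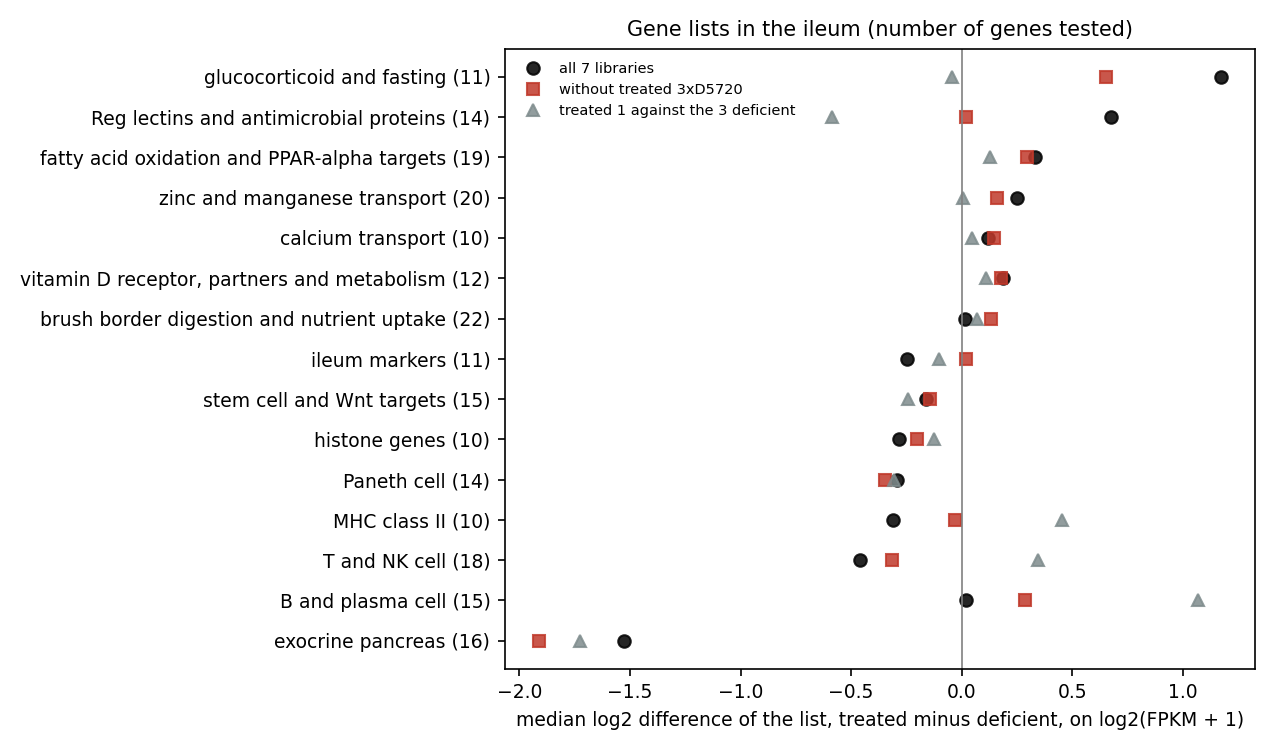
Median log2 difference, treated minus deficient, of 15 gene lists in the ileum, with the number of genes tested in brackets. Circles use all 7 libraries, squares leave out treated 3xD5720 and triangles set treated 1 alone against the 3 deficient libraries. The fasting, lectin, lymphocyte and MHC class II lists move most between the 3 choices, and the Paneth cell and exocrine pancreas lists lie below 0 in these 3, although without deficient 3, not drawn, the Paneth cell median is -0.05.

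The response of the ileum was set against that of the duodenum and of the colon in one limma fit of 23 libraries, with the difference of the 2 responses tested for each of 12149 genes. Without a block for column number, none passed an adjusted p of 0.05 in either comparison (0% of genes). Of the 12149 genes, 559 against the duodenum and 399 against the colon had an unadjusted p under 0.05. Each is a smaller share than the 0.05 that chance alone would pass. Cyp24a1 differed between treated and deficient mice by 4.90 ± 1.34 in the ileum, against 7.91 in the duodenum and 6.28 in the colon; the response of the ileum minus that of the duodenum was -3.01 ± 1.82 (adjusted p = 0.837), and minus that of the colon -1.38 ± 1.82 (adjusted p = 0.964). For Slc30a10 these differences of responses were 1.31 ± 0.88 against the duodenum (adjusted p = 0.837) and -0.51 ± 0.88 against the colon (0.969). For S100g they were 0.47 ± 1.61 against the duodenum (0.953) and -2.05 ± 1.61 against the colon (0.961). The intervals are wide enough that neither like nor unlike responses are shown.

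The smallest p against the duodenum was that of Ap1g1, listed at 0.032, 0, 0 and 0.060 FPKM in treated and 1.07, 1.05, 1.74 and 1.29 in deficient duodenal libraries, the reverse of its order in the ileum (difference of responses 2.48 ± 0.45, adjusted p = 0.229). In the colon it was listed at 1.54, 0, 0 and 2.90 FPKM in treated and 1.20 to 2.26 in deficient libraries. Its listing thus moved between 0 and higher values within the treated colonic group. Pygo2, a Wnt cofactor gene (1.39 ± 0.27, 0.326), H2-T22, an MHC class I gene (1.82 ± 0.38, 0.417), Vwce (1.75 ± 0.37, 0.432) and Rhov, a small GTPase gene (-1.02 ± 0.25, 0.837), followed. H2-T22 has close relatives among which reads may be divided. Against the colon the smallest was Rac3, a small GTPase gene. It stood at 2.78, 3.23, 1.58 and 2.24 FPKM in treated and 3.85, 3.01 and 3.98 in deficient ileal libraries, and at 11.3, 9.52, 9.73 and 8.92 against 5.76, 4.63, 5.89 and 4.97 in colonic ones (difference of responses -1.22 ± 0.20, adjusted p = 0.089). It passed the threshold without treated 3xD5711 (-1.32, adjusted p = 0.025) and with column number as a replicate block (-1.24, adjusted p = 0.0208). All colonic treated libraries lay above the deficient ones, and in the ileum the groups overlapped. Rhov (-1.22 ± 0.25, 0.468), Zfp445 (-2.83 ± 0.59, 0.472), Mib2 (2.23 ± 0.49, 0.567) and Ap1g1 (1.97 ± 0.45, 0.638) came next.

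**Figure D5:**
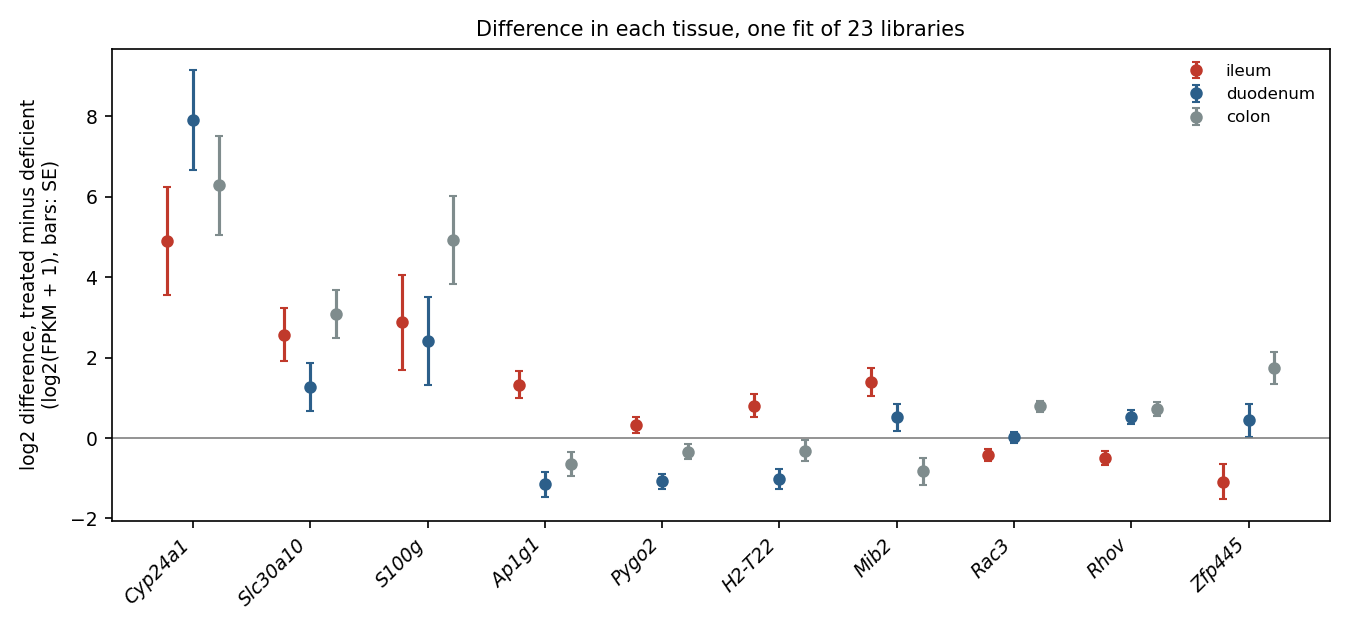
Difference between treated and deficient mice, as log2(FPKM + 1), for 10 genes in the ileum (red), duodenum (blue) and colon (grey), from one fit of 23 libraries; points are estimates and bars are SE. Cyp24a1, Slc30a10 and S100g lie above 0 in each tissue, and Rac3 and Rhov lie below 0 in the ileum and above 0 in the colon.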

How the data were processed

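Poly(A) RNA of the ileum was sequenced from wild-type mice, 4 treated and 4 deficient samples per the labels, of which 4 and 3 have columns used here. The authors deposited FPKM, made from mapped reads, with 1 column for each library and 1 row for each gene symbol. Of tools, the submitters' processing notes list DESeq2, DESeq 1.14.0 and kallisto 0.45.0, with mm9 as the build and no role given, and the labels' protocols name CLC Genomics Workbench for mapping. Column numbers, serial or of 4 digits, are linked to no replicate in the labels, which left the labelled sex and age of single libraries unassigned. Columns named Vehicle were taken as the deficient group, since the tables compare MinusD with 3xD. The plan of 4 against 4 libraries became 4 against 3. Nothing in the labels ties samples to animals, so p-values measure the spread between these samples.

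The test, on log2(FPKM + 1) for genes reaching 1 FPKM in 3 or more of the 7 libraries, was limma 3.58.1 (eBayes with trend) in R 4.3.3, two-sided, with no covariate, Benjamini-Hochberg adjustment and a threshold of 0.05. Tissues were compared by contrasts between 6 groups fitted together (23 libraries). The code was tested on simulated data. Since FPKM of a gene rise in steps of 1 read, reads were recovered for 78.7% of ileal genes above 0 in at least 4 libraries, within 0.0001 of a whole number, and tested with limma's voom, scaled by their totals. This recovery rests on the steps in the values and on no deposited count. They leave out the other genes, so the depths are lower limits. Other alternatives covered pseudocounts of 0.1 and 0.5, filters, quantile and median-ratio rescaling, array weights, robust eBayes, the numbering scheme, Xist above Ddx3y and each library left out.

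Earlier results of these data were known when the comparison, its gene lists and its naming rule were chosen. The rule took the panel of the labels and the list of the receptor, its partners and metabolism, the 12 smallest p in each direction, the 10 largest differences without overlap in each direction, 3 members with the smallest p and the most abundant member of each other list, and the 5 smallest interaction p against each tissue. Named outside it, after their values were seen, were Xist, Slc30a5, Slc39a8, Slc39a14, Tsc22d3, Fkbp5, G6pc, Cpt2, Hadha, Acaa2, Fgf15, Saa1, Defa17, Lyz1 and Mtap9. How reads shared by overlapping or near-identical genes were divided is not stated in the labels. Some genes that the rule names are not reported here.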

Additional observations from a re-analysis of the deposited data

Results flagged for a closer look

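Among the 4 treated libraries, 1 library lay far from the other 3 on log2(FPKM + 1) for 17 of the 96 named genes, by the gap to its nearest neighbour over the whole range (above Dixon's 95% critical value). Chance flags about 1 in 20 groups of normal values that were not chosen by their values. Many of these genes were chosen by their values, and treated 3xD5720 recurs among the flags. For these reasons 17 of 96 cannot be set against that rate. The 3 deficient libraries are too few for this check. Treated 3xD5720 lay above the others in Ncoa2 (7.132 FPKM, the others 4.465 to 4.813), Chi3l3 (23.3 FPKM, the others 0.5867 to 1.347), Saa1 (2748 FPKM, the others 18.11 to 29.78) and Lyz1 (10349 FPKM, the others 6606 to 6774). Treated 3xD5720 lay below the others in Fabp6 (1985 FPKM, the others 9095 to 10301), Vdr (53.39 FPKM, the others 80.82 to 83.31), Cubn (11.72 FPKM, the others 108.1 to 151.8), Hist1h2bc (111.7 FPKM, the others 333.1 to 361.0), Stra8 (0.259 FPKM, the others 2.396 to 2.753), Ascl2 (1.267 FPKM, the others 3.132 to 3.533) and Zfp445 (0.4317 FPKM, the others 2.367 to 2.686). Treated 3xD5711 lay above the others in Oaz1 (0.9846 FPKM, the others at 0). Treated 3xD5711 lay below the others in Tuft1 (0.6411 FPKM, the others 1.068 to 1.143). Treated 1 lay above the others in Rn4.5s (1.694 FPKM, the others at 0). Treated 1 lay below the others in Hadha (138.3 FPKM, the others 148.2 to 148.4) and Cpt1a (38.57 FPKM, the others 50.37 to 52.95). Treated 3xD5734 lay above the others in Defa25 (1.322 FPKM, the others at 0).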

How the results depend on the processing

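Under every alternative run on the ileum alone, limma called 0 genes, with the exceptions of 1 lower gene with no filter on low values (Mtap9, adjusted p = 0.0178) and 1 higher gene by voom (Ap1g1, log2 8.69, adjusted p = 0.0342, a fitted value that depends on the count added to 0). With each library left out in turn the counts ran from 0 to 0 in each direction. Genes at an unadjusted p under 0.05 numbered 1136 with array weights, 76 with the numbering scheme in the fit, 271 with Xist above Ddx3y in the fit, 1089 in one fit of 23 libraries, and 250 (without deficient 2) to 1260 (without deficient 3) with single libraries left out, against 709. Of 1952 values of 96 named genes, 1875 kept their direction and side of the threshold, and 76 changed sign. The cause was not tested. With the numbering scheme in the fit, which equals treated 1 alone against the deficient libraries, the log2 difference was 0.37 for Fabp6, 0.11 for Ddx3y, 0.042 for Vdr, 0.14 for Rxrb, -0.005 for Ncoa1, -0.032 for Cyp27a1, 0.47 for Cubn, -0.17 for Slc39a8, -0.062 for Slc39a14, -0.45 for Mt1, 0.39 for Hist1h2bc, -0.91 for Fkbp5, 1.38 for Fgf15, -0.25 for Nr1h4, -0.10 for Ostb, -1.17 for Reg3b, -1.36 for Saa1 and 0.28 for Cd74. With Xist above Ddx3y in the fit it was 0.38 for Fabp6, 0.046 for Ddx3y, 0.049 for Vdr, 0.10 for Rxra, 0.72 for Cubn, -0.017 for Slc39a8, -0.12 for Mt1, 0.34 for Hist1h2bc, 0.30 for Fgf15, -0.38 for Reg3b and -1.25 for Saa1. With array weights it was 0.31 for Fabp6, 0.16 for Cubn, -0.22 for Mt1 and 0.35 for Hist1h2bc. For Slc37a2 it was -0.035 with a pseudocount of 0.1, -0.009 with 0.5 and -0.004 with median-ratio rescaling. With single libraries left out it ran from -0.51 to 0.33 for Fabp6, -0.071 to 0.11 for Slc37a2, -0.28 to 0.072 for Vdr, -0.38 to 0.039 for Rxra, -0.020 to 0.11 for Ncoa3, -0.72 to 0.71 for Cubn, -0.14 to 0.21 for Cdkn1a, -0.40 to 0.96 for Mt1, -0.25 to 0.33 for Hist1h2bc, -1.60 to 0.33 for Fgf15, -0.34 to 1.38 for Reg3b, -1.06 to 2.29 for Saa1 and -0.22 to 0.14 for Lyz1. Between tissues, the pseudocount of 0.1 gave 1 gene higher against the duodenum (Ap1g1, 7.47, adjusted p = 0.0264), and leaving out single ileal libraries gave 0 to 1 genes lower against the colon (Rac3, -1.32, adjusted p = 0.025, without treated 3xD5711). The difference of responses then ran from -1.17 to 0.16 for Slc30a10 against the colon and from -0.71 to 2.42 for S100g against the duodenum. Of 50 lists with at least 3 genes tested, the median changed sign in 9 without treated 3xD5720, in 7 without deficient 1, in 9 without deficient 2, in 6 without deficient 3 and in 19 for treated 1 alone, settings chosen after seeing the data.

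No paired analysis was possible because the numbers of the ileal columns are not tied to the labels' replicate numbers. Across tissues, a replicate block by column number (correlation 0.308, a shared name and not a stated shared animal) gave 0 genes against the duodenum, with 1046 at an unadjusted p under 0.05, and 1 lower gene against the colon (Rac3, -1.24, adjusted p = 0.0208), with 849. The 4-digit libraries are the shallowest, and with 4 against 3 libraries no exact test of a single gene can pass 0.05, so a p that misses the threshold does not show that the groups are alike.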
